A study of Mus musculus with 12 samples.

Results

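Cytokines of the IL-1, IL-6 and TNF families and their receptors were examined in the venous limb of an arteriovenous fistula (AVF), the connection between an artery and a vein that is used for hemodialysis access. 10 genes were chosen by gene symbol: Il1b, Il1rn, Il1r1, Il33, Il6, Il11, Lif, Osm, Osmr and Tnf, out of 55414 gene identifiers in the count table. Infrarenal inferior vena cava (IVC) had been collected on postoperative day 7 from wild-type C57BL/6 mice that were 10 weeks old. In the AVF group (n = 6) a needle was passed through the aorta into the IVC, and in the sham group (n = 6) the vessels were exposed and clamped without the puncture. Both groups held 3 male and 3 female mice, each library was made from 1 mouse, and both groups had the laparotomy, the anesthesia and the buprenorphine in common. The model is a fistula in young healthy mice without renal failure, and the IVC was taken whole, so that fewer cells of a type and less RNA per cell cannot be told apart.

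IL-1β is made as a precursor that is cut by caspase-1 and signals through the IL-1 receptor (Il1r1) and the adaptor MyD88 to NF-κB, while the receptor antagonist (Il1rn) occupies the same receptor without signaling. IL-33 is held in the nucleus of stromal and endothelial cells and signals through its own receptor, Il1rl1. The IL-6 family (IL-6, IL-11, LIF and oncostatin M) shares the receptor chain gp130, encoded by Il6st, and activates JAK kinases and STAT3, and TNF is released from the cell surface by the protease ADAM17. In vessel walls these cytokines are known as signals between leukocytes, endothelial cells, smooth muscle cells and fibroblasts after injury.

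The libraries held 15177881 to 22717423 counts. In AVF female 1, 46.0% of the counts fell on ribosomal RNA genes, which left 8196603 counts for all other genes, the fewest of the 12 libraries. The study had set apart AVF male 2 and AVF female 2. Summed hepatocyte markers were 4372 and 11362 normalized counts (CPM, scaled to library size) in these libraries and 533 to 2702 in the other AVF libraries. Outside the set-apart libraries this sum was almost all Cyp2e1, which had 527 to 2699 CPM in AVF and 582 to 1483 CPM in sham. The median of the albumin gene Alb was 2.41 CPM in AVF and 0.911 CPM in sham. All 8 endothelial and all 6 smooth muscle markers were detected above the expression filter, and none of them differed between the groups at an adjusted p under 0.05. The scaling also took library composition into account, and 3 counts corresponded to 0.127 to 0.323 CPM, depending on the library.

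To compare levels between the genes, CPM was divided by the length of each gene's canonical transcript in kilobases. In sham IVC Il33 was highest with 31.4 ± 4.23 CPM per kb (mean ± SD, n = 6), followed by the receptors Osmr (16.4 ± 2.27) and Il1r1 (12.7 ± 0.867). Each of these differed from its lower neighbor by more than the spread, and in 6 of 6 sham libraries. The remaining genes lay far lower and overlapped with their neighbors: Il1b had 3.41 ± 3.54 CPM per kb, Il1rn 1.05 ± 0.765, Lif 0.504 ± 0.267, Tnf 0.294 ± 0.135, Il6 0.162 ± 0.181, Il11 0.140 ± 0.101 and Osm 0.132 ± 0.0401. In the IVC the receptors and the nuclear cytokine were thus measured with many counts (21401 to 25203 over the 12 libraries for Il33, Il1r1 and Osmr), and most secreted ligands with few (85 to 112 for Osm, Il11, Il6 and Tnf). In the AVF group Il1r1 (19.8 ± 3.94 CPM per kb) stood above Osmr (16.5 ± 3.21) in 5 of 6 libraries, although the spreads of the 2 genes overlapped. Il6 (0.658 ± 0.299) stood in the sixth place in AVF, above Lif (0.516 ± 0.168) in 4 of 6 libraries, and in the eighth place in sham.

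**Figure D1:**
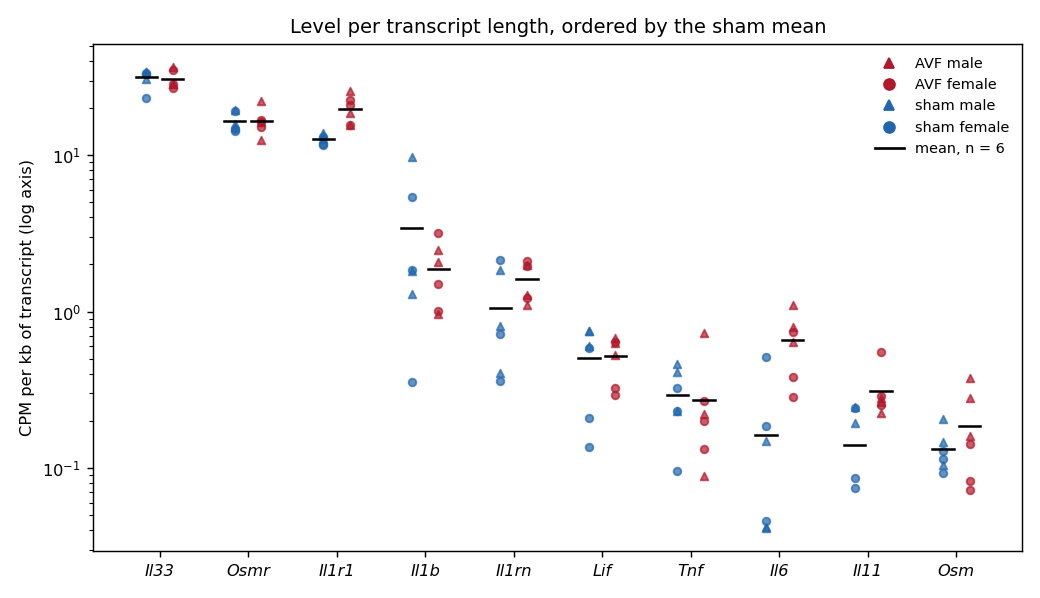
CPM per kb of canonical transcript (log axis) of the 10 genes in each mouse, ordered by the sham mean, with sham in blue, AVF in red, males as triangles, females as circles and the group mean as a line. Il33, Osmr and Il1r1 lie above 11 CPM per kb in all libraries and the 7 other genes below 10; the sham library without Il11 counts is not drawn.

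Of the 10 genes, 6 passed the expression filter of more than 1 CPM in at least 2 libraries, which 15912 genes passed. None of the 6 was called a differentially expressed gene (DEG) between AVF and sham, which required both a 2-fold change and an adjusted p under 0.05 in edgeR's quasi-likelihood test, where 3.37% of all tested genes were called higher and 1.4% lower. DESeq2 and the edgeR exact test also called none of the 6. Without the fold change criterion 1 of the 6 genes passed, Il1r1, which was higher in AVF, beside 8.63% of all tested genes higher and 5.13% lower. At an unadjusted p under 0.05 the count was also 1 of 6, beside 31.6% of all tested genes. Il6, Il11, Osm and Tnf did not pass the filter and are described from the fit on the 22163 genes with more than 12 counts in total, in which 2.4% of the genes were called higher.

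Il1r1, the signaling receptor of IL-1α and IL-1β, was the only gene of the 6 that separated AVF from sham. Sham libraries held 68.2 CPM at the lowest, 75.6 at the median and 81.0 at the highest, and AVF libraries 91.7, 116 and 150 CPM. Every AVF library thus lay above every sham library, which was also the case, in either direction, for 6.06% of the tested genes. The means were 116 ± 23.2 CPM in AVF and 74.8 ± 5.11 CPM in sham (SD, n = 6 each), a 1.56-fold difference (log2 fold change 0.64, SE 0.12, 95% interval 0.38 to 0.90, adjusted p = 0.00522). The AVF libraries were spread over a wider range than the sham libraries, with AVF male 1 highest and AVF male 3 and AVF female 1 lowest. The 2 sexes gave close values, with log2 fold changes of 0.67 (SE 0.19) in females and 0.60 (SE 0.19) in males. With 3 mice per group, neither sex alone passed edgeR's adjusted test (adjusted p = 0.0907 in females and 0.213 in males). The adjusted p stayed under 0.05 without either of the set-apart libraries (0.65, adjusted p = 0.0210 with both left out) and without AVF female 1 (0.72, adjusted p = 0.00241).

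**Figure D2:**
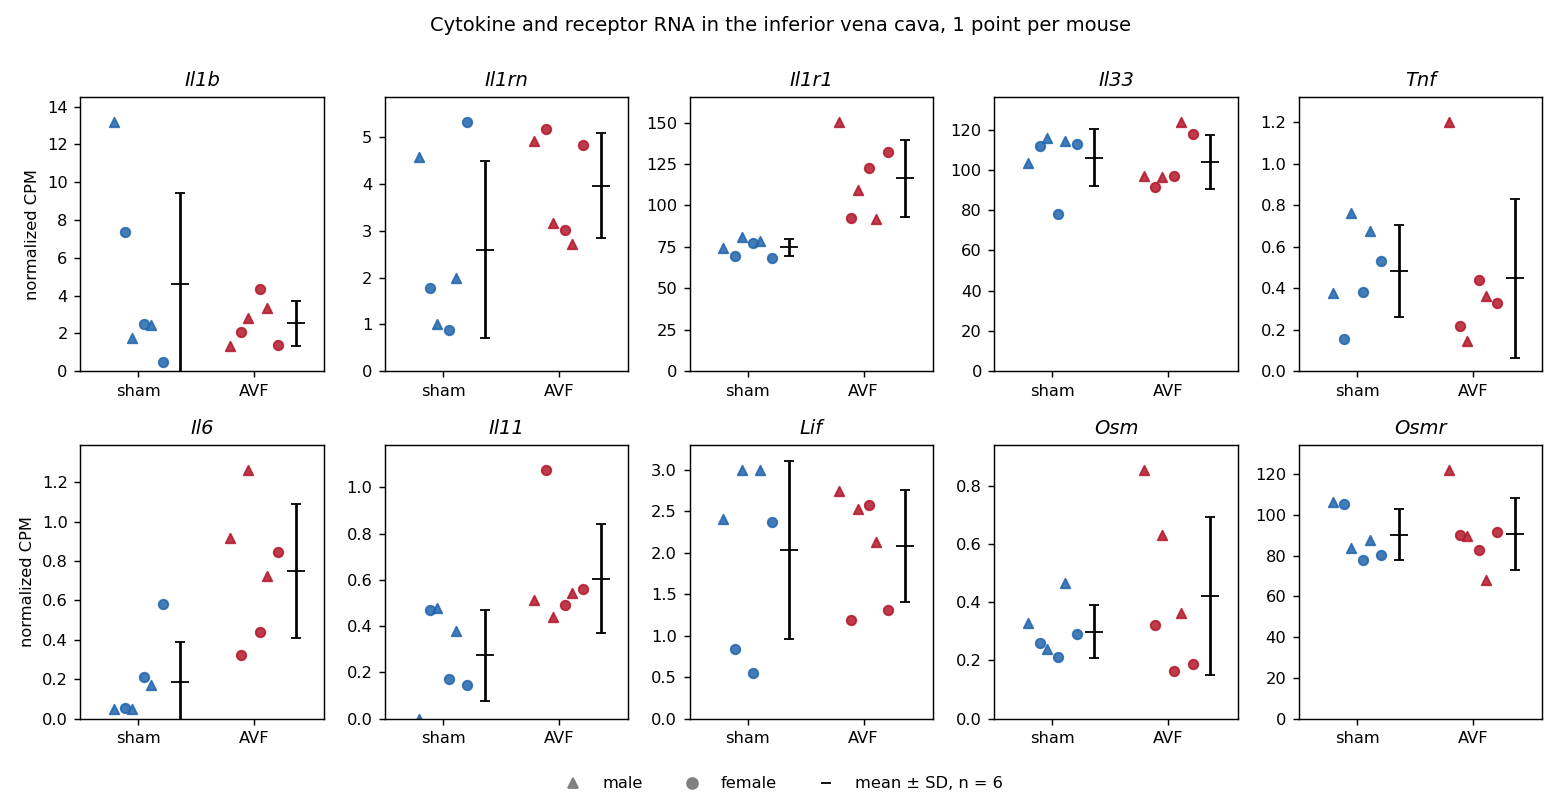
Normalized CPM (linear axis from 0, a scale for each gene) of the 10 genes in each mouse, with sham in blue, AVF in red, males as triangles, females as circles, and the mean ± SD of each group in black (lower error bars of Il1b and Il6 in sham end at the axis). The groups are separate only for Il1r1, where AVF mice lie between 91.7 and 150 CPM and sham mice between 68.2 and 81.0.

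Il1r1 (ENSMUSG00000026072) lies on chromosome 1 at 40264174 to 40356417 (GRCm39), and its canonical transcript starts inside this span. The sequence before that start is shown because Il1r1 was the gene that passed the test, and that of Il6 because Il6 had the highest fold change of the 10. Il6 (ENSMUSG00000025746) lies on chromosome 5 at 30218112 to 30224979. Both stretches were read from GRCm39 on the forward strand, at chr1:40305496-40305697 for Il1r1, where the last bases of the 250-base window are left out as exons of other Il1r1 transcripts, and at chr5:30217862-30218111 for Il6. Capitals mark matches on either strand to the NF-κB, AP-1 (TGANTCA) or C/EBP (TTGCNNAA) motif.
Il1r1: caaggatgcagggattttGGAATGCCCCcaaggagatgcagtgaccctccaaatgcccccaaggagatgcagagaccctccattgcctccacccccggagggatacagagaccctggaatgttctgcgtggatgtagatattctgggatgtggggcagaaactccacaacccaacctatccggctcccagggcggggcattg
Il6: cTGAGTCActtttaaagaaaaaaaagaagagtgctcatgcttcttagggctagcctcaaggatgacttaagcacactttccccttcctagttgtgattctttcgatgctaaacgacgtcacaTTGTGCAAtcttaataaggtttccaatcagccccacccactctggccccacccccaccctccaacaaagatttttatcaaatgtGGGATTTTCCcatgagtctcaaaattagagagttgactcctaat
In the 250 bases before the canonical start, the Il6 promoter held an NF-κB match 44 to 35 bases before the start, a C/EBP match 128 to 121 bases and an AP-1 match 249 to 243 bases before it. The Il1r1 window held 1 NF-κB match, 232 to 223 bases before the start, and Lif held an NF-κB match and an AP-1 match. AP-1 matches were also found before Il11 and Il1rn. In all, 3 of 10 genes had an NF-κB match, 4 an AP-1 match, 1 a C/EBP match and 0 a STAT match (TTCNNNGAA), where 7.62%, 6.17%, 9.34% and 7.7% of 21770 protein-coding promoters of the same length had one. No 2 matches overlapped. These are matches of letters and no measure of binding.

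Summed markers of macrophages and of fibroblasts were higher in AVF than in sham, as Il1r1 was. Summed macrophage markers were 632 to 1133 CPM in AVF and 396 to 631 in sham, with 5 of 8 markers higher at an adjusted p under 0.05. Summed fibroblast markers were 10207 to 15821 CPM in AVF and 5473 to 10080 in sham, with 4 of 6 markers higher, among them the collagen gene Col1a1 (8274 ± 1950 CPM in AVF and 3279 ± 1152 CPM in sham), whereas the fibroblast receptor gene Pdgfra did not pass the test (log2 fold change 0.04, adjusted p = 0.900). Dcn did not pass the edgeR test either (2946 ± 174 CPM in AVF and 2710 ± 786 CPM in sham, adjusted p = 0.665). Col1a1 had the highest level of the list. Since AVF and sham were separate in Il1r1 and in both sums, the relation was examined within the groups. For macrophage markers Pearson's r on log2 values was 0.64 in AVF (exact permutation p = 0.175, n = 6) and 0.35 in sham (exact permutation p = 0.486, n = 6). Spearman's rho was 0.54 (exact p = 0.297) and 0.43 (exact p = 0.419). For fibroblast markers r was -0.11 in AVF (exact permutation p = 0.810) and 0.51 in sham (exact permutation p = 0.281), and rho was -0.03 (exact p = 1) and 0.43 (exact p = 0.419). Summed mesothelial markers overlapped between the groups, with 5.34 to 54.4 CPM in AVF and 1.93 to 32.9 in sham, and 0 of 6 passed the adjusted test in edgeR, with 1 at an unadjusted p under 0.05. Within AVF Il1r1 followed them with r = 0.92 (exact permutation p = 0.0139, adjusted p = 0.452 over 60 relations, n = 6; rho = 0.83, exact p = 0.0583), and within sham r was 0.22 (exact permutation p = 0.75; rho = 0.14, exact p = 0.803). Endothelial markers gave the opposite sign within AVF, with r = -0.90 (exact permutation p = 0.0222, adjusted p = 0.452) and rho = -0.77 (exact p = 0.103). Within sham their r was -0.44 (exact permutation p = 0.410). Hepatocyte markers summed to 533 to 11362 CPM in AVF and 587 to 1485 in sham, with 7 of 8 higher in AVF. The highest sums were in the set-apart libraries AVF male 2 (4372 CPM) and AVF female 2 (11362 CPM). Of the 7 markers, Apoa1, Ttr, Serpina1a, Fgb and Apob exceeded 1 CPM in only 2 libraries, both AVF. Their AVF medians were 0.167 to 0.777 CPM and their AVF maxima 258 to 1211 CPM. The differences of these genes thus rested on 2 of the 6 AVF libraries. Brown adipocyte markers, 3 of 7 of which were lower, summed to 49.2 to 336 CPM in AVF and 119 to 1815 in sham. For hepatocyte markers, a sum that in sham was almost all Cyp2e1, r was 0.40 within AVF (exact permutation p = 0.435) and 0.48 within sham (exact permutation p = 0.357). For brown adipocyte markers it was 0.05 (exact permutation p = 0.914) and -0.66 (exact permutation p = 0.168). The part of these cell types in the Il1r1 difference was not tested. The 3 genes with the most similar pattern to Il1r1 over the 12 libraries, among 14387 named protein-coding genes, were Sec22b (r = 0.95), Ireb2 (r = 0.94) and Abi1 (r = 0.94). The gene model Gm38070 on the same strand overlaps Il1r1 and held 74 counts in total beside 22515 of Il1r1.

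Il1b was the most variable of the genes that passed the filter. AVF libraries held 1.31, 2.43 and 4.33 CPM at the lowest, median and highest, and sham libraries 0.484, 2.47 and 13.2 CPM. The medians were thus close, and the difference between the means (2.54 ± 1.19 CPM in AVF and 4.62 ± 4.80 CPM in sham, SD, n = 6 each) came with 2 sham libraries, sham male 1 with 13.2 CPM and sham female 1 with 7.36 CPM. The log2 fold change was -0.86 (SE 0.63, 95% interval -2.22 to 0.50, adjusted p = 0.373). Without sham male 1 it was -0.19 (adjusted p = 0.856).

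Over the 12 libraries, Il1b was most similar to S100a9 (r = 0.95, rho = 0.92), Cxcr2 (r = 0.95, rho = 0.92) and S100a8 (r = 0.93, rho = 0.85), of 14387 genes compared. All 3 stand in the list of neutrophil markers: S100a8 and S100a9 encode the calcium-binding subunits of calprotectin, and Cxcr2 a chemokine receptor. The summed level of the 8 neutrophil markers was 132 CPM in sham male 1 and 114 in sham female 1, 15.9 in sham female 3, where Il1b was lowest, and 28.6 to 52.8 in the other 9 libraries. The sum includes S100a8, S100a9 and Cxcr2, so its relation to Il1b was not separate from the similarity of these genes. S100a9 and S100a8 had the highest means of the list (22.0 and 18.1 CPM in sham, 12.4 and 8.69 CPM in AVF). Il1b followed this sum with Pearson's r = 0.94 on log2 values (permutation p = 2e-05, adjusted p = 0.0012 over 60 relations between 6 genes and 10 marker lists, n = 12). Spearman's rho was 0.85 (permutation p = 0.00081, adjusted p = 0.0243). Without sham male 1 and sham female 3, the libraries farthest from the median of the sum, r was 0.86. Within sham r was 0.98 (exact permutation p = 0.00139, adjusted p = 0.0833, n = 6) and within AVF 0.73 (exact permutation p = 0.143, adjusted p = 0.867, n = 6), and rho was 1 within sham (exact p = 0.00278) and 0.60 within AVF (exact p = 0.242). Of the neutrophil markers, 0 of the 6 that passed the filter differed between AVF and sham at an adjusted p under 0.05 or at an unadjusted p under 0.05 in edgeR. The marker Ly6g had no more than 3 counts in any library. The 2 high sham libraries were a male and a female. Il1b also overlaps 2 genes on the opposite strand, Il1bos and Gm14023, and the counting used strand.

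**Figure D3:**
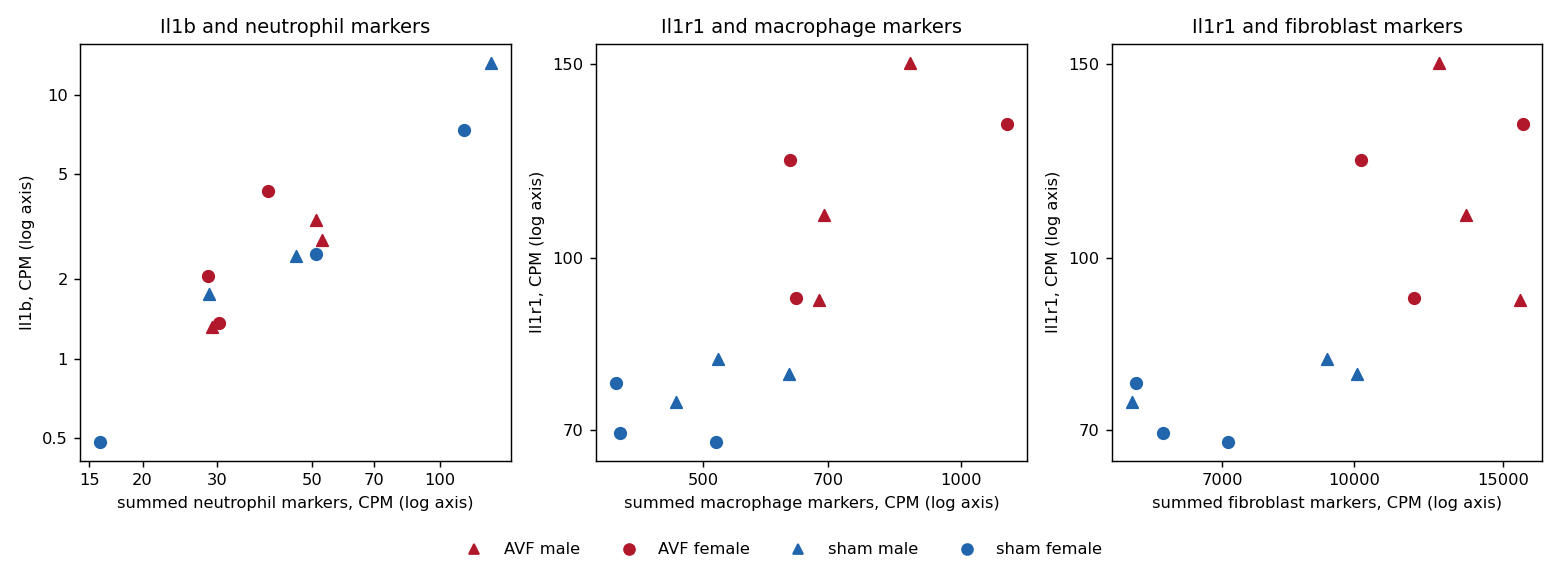
Il1b against summed neutrophil markers, and Il1r1 against summed macrophage and summed fibroblast markers, in CPM on log axes, 1 point per mouse, with AVF in red, sham in blue, males as triangles and females as circles. Il1b was higher where the neutrophil sum was higher, across libraries of both groups (r = 0.94), with sham male 1 and sham female 1 at the upper end, whereas Il1r1 separates the groups and is not ordered by the fibroblast sum within AVF (r = -0.11).

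Il1rn, the receptor antagonist, had 2.71, 3.99 and 5.17 CPM at the lowest, median and highest in AVF and 0.889, 1.88 and 5.32 CPM in sham. The highest value of all was in sham female 3, and sham male 1 with 4.58 CPM was also within the AVF range, so that the groups overlapped. The means were 3.97 ± 1.12 and 2.59 ± 1.89 CPM (log2 fold change 0.61, SE 0.43, 95% interval -0.31 to 1.53, adjusted p = 0.352). Its closest patterns were those of Atp8b4 (r = 0.91), Atp6v0d2 (r = 0.91), which encodes a subunit of the vacuolar proton pump, and Mmp12 (r = 0.90), which encodes macrophage elastase.

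The balance of antagonist to cytokine was read as the ratio of Il1rn to Il1b counts. Il1rn counts exceeded Il1b counts in 4 of 6 AVF and 1 of 6 sham libraries. The log2 ratio was 0.73 ± 1.09 in AVF and -0.45 ± 2.01 in sham (SD, n = 6 each), a difference of 1.19 that did not exceed the spread (two-sided exact permutation p = 0.232, where the smallest possible p was 0.00216). Sham female 3 stood apart with an 11-fold ratio, since it had the highest Il1rn and the lowest Il1b (10 counts) of the sham group. Without it the sham mean was -1.24 and the difference 1.97 (exact permutation p = 0.00866, n = 6 and 5), while leaving out any other library gave differences of 0.87 to 1.44 (exact permutation p = 0.160 to 0.394), so that the result depended on sham female 3. The ratio and the tests without a library were chosen after the values were seen.

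Il33, the alarmin of stromal cells, had similar levels in both groups. AVF libraries held 91.4, 96.9 and 124 CPM at the lowest, median and highest and sham libraries 78.3, 112 and 116 CPM. The means were 104 ± 13.5 and 106 ± 14.3 CPM (log2 fold change -0.03, SE 0.11, adjusted p = 0.878), with a 95% interval of -0.27 to 0.21 that was the narrowest of the 10 genes. The genes with the most similar pattern were Hdac1 (r = 0.95), Rabl2 (r = 0.89) and Rpap3 (r = 0.88). Its receptor gene Il1rl1 had 18.0 ± 3.94 CPM in AVF and 13.4 ± 2.05 CPM in sham and did not pass the adjusted test (log2 fold change 0.43, adjusted p = 0.0763).

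Among the IL-6 family, Il6 had the highest fold change of the 10 genes but few counts. AVF males 1 to 3 held 16, 26 and 16 counts and AVF females 1 to 3 held 3, 8 and 18. Sham males 1 to 3 held 1, 1 and 4 counts and sham females 1 to 3 held 1, 5 and 12. All 3 AVF males were above all sham males, whereas the female groups overlapped, and sham female 3 with 0.581 CPM lay above 2 AVF females with 0.323 and 0.438 CPM. The means were 0.751 ± 0.341 CPM in AVF and 0.185 ± 0.206 CPM in sham (SD, n = 6 each). In the fit on genes with more than 12 counts, the log2 fold change was 1.99 (SE 0.60, 95% interval 0.69 to 3.29), a 3.97-fold difference that missed the threshold after adjustment (adjusted p = 0.0581). It passed the threshold with DESeq2 (2.06, adjusted p = 0.00939), with the edgeR exact test (1.99, adjusted p = 0.0204), without ribosomal RNA genes, where it passed the CPM filter (2.00, adjusted p = 0.0438), without AVF female 1 (2.16, adjusted p = 0.0411) and without sham female 3 (2.74, adjusted p = 0.0143), and without both set-apart libraries the log2 fold change was 1.90 (adjusted p = 0.132). Il6 passed in only 2 of the 12 fits without 1 library each and in 3 of the 9 other alternatives. The Il6 call thus depended on the setting, while its direction was the same in all of these fits.

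The Il6 difference was 3.35 on the log2 scale in males (SE 0.83, adjusted p = 0.116) and 0.92 in females (SE 0.75, adjusted p = 0.538). The test of the difference between the sexes gave -2.42 (SE 1.11, adjusted p = 0.960), so that a sex difference was not shown. In a model with 4 groups the interaction of operation and sex was called for 0 of the 10 genes by edgeR's quasi-likelihood test, and by DESeq2 for 0, and 1 gene (Il6) had an unadjusted p under 0.05. Over all 22163 genes the interaction was called for 0% by edgeR, with 1069 (4.82%) at an unadjusted p under 0.05.

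Il11, a cytokine that acts on fibroblasts and smooth muscle, had 9, 9 and 12 counts in AVF males and 10, 9 and 12 in AVF females, and 0, 10 and 9 in sham males and 9, 4 and 3 in sham females. In CPM, 5 AVF libraries had 0.438 to 0.562 and AVF female 1, with the fewest usable counts, stood above them with 1.08, while sham libraries had 0 to 0.477. The mean was 0.605 ± 0.236 CPM in AVF and 0.274 ± 0.197 CPM in sham (log2 fold change 1.09, SE 0.58, 95% interval -0.16 to 2.33, adjusted p = 0.261, genes with more than 12 counts).

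Osm, a ligand made by leukocytes, had 3 to 15 counts in AVF and 5 to 11 in sham, with 0.421 ± 0.271 and 0.300 ± 0.0910 CPM (log2 fold change 0.48, SE 0.45, 95% interval -0.50 to 1.45, adjusted p = 0.569). AVF males had 15, 13 and 8 counts and AVF females 3, 3 and 4, at or just above the 3-count level, and sham males had 7, 5 and 11 counts and sham females 5, 5 and 6. Female against male AVF gave a log2 fold change of -1.50 (SE 0.57, adjusted p = 0.980). Osm and Lif are neighbors on chromosome 11, with 16530 bases between them.

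Lif, known for its action on stem cells and in injury responses, had 1.19, 2.33 and 2.74 CPM at the lowest, median and highest in AVF and 0.550, 2.39 and 3.00 CPM in sham. The means of 2.08 ± 0.675 and 2.03 ± 1.07 CPM were close (log2 fold change 0.04, SE 0.40, 95% interval -0.83 to 0.91, adjusted p = 0.957). The interval was wide beside those of Il33 and Osmr. Sham males had 2.41 to 3.00 CPM and sham females 0.550 to 2.37 CPM (female against male log2 fold change -1.14, SE 0.50, adjusted p = 0.640). The most similar patterns were those of Mthfs (r = 0.91), Zc3hav1 (r = 0.90) and Trpm4 (r = 0.89).

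Osmr, the receptor chain that pairs with gp130 to bind oncostatin M, had 68.2, 90.0 and 122 CPM at the lowest, median and highest in AVF and 78.1, 85.6 and 106 CPM in sham. The means were 90.8 ± 17.7 and 90.2 ± 12.5 CPM (log2 fold change 0.01, SE 0.13, 95% interval -0.27 to 0.29, adjusted p = 0.970). AVF male 1 was the highest AVF library for Osmr as for Il1r1, and AVF male 3 the lowest for both. Its closest patterns were those of Ikzf5 (r = 0.87), Sirt1 (r = 0.84) and Csf2rb (r = 0.81).

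Tnf had 21, 3 and 8 counts in AVF males, 2, 8 and 7 in AVF females, 8, 16 and 16 in sham males and 3, 9 and 11 in sham females. AVF male 1 alone reached 1.20 CPM, and the other AVF libraries had 0.146 to 0.438 CPM. The means were 0.448 ± 0.383 and 0.481 ± 0.222 CPM (log2 fold change -0.09, SE 0.52, 95% interval -1.21 to 1.02, adjusted p = 0.940, genes with more than 12 counts). The interval did not exclude a 2-fold change in either direction. Without AVF male 1 the log2 fold change was -0.68 (adjusted p = 0.405).

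**Figure D4:**
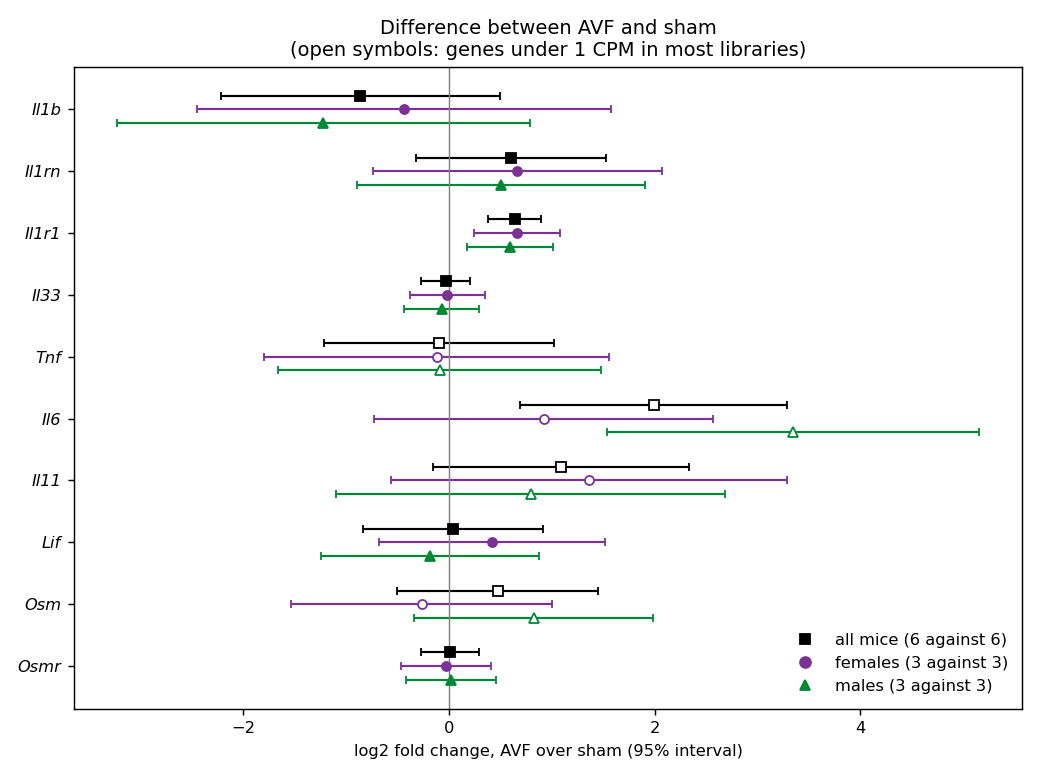
Log2 fold change of AVF over sham with its 95% interval for each gene, in all mice (black squares), in females (purple circles) and in males (green triangles), with open symbols for the 4 genes that did not pass the CPM filter. The interval for all mice excludes 0 for Il1r1 (0.38 to 0.90) and Il6 (0.69 to 3.29) and is narrow around 0 for Il33 and Osmr.

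Females and males were compared within each operation. In AVF 0 of the 10 genes were called by edgeR (adjusted p under 0.05 and at least 1.5-fold), where 0.0226% of all tested genes were called, and 1 gene, Osm, had an unadjusted p under 0.05, beside 4.53% of all tested genes. In sham 0 of the 10 were called, where 0.0451% of all tested genes were called, and 1 gene, Lif, had an unadjusted p under 0.05, beside 7.58% of all tested genes. DESeq2 called 0 in both comparisons.

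The other genes of the pathways were described from 6 lists with 83 genes, of which 76 passed the expression filter. None was a DEG by edgeR's quasi-likelihood or exact test or by DESeq2. At an adjusted p under 0.05 without the fold change criterion, 3 of the 76 were higher and 1 was lower, beside 8.63% and 5.13% of all tested genes. At an unadjusted p under 0.05 there were 17 of the 76 (14 higher, 3 lower), beside 31.6% of all tested genes. The median log2 fold change over the 76 genes was 0.11, beside -0.01 over all 15912 tested genes. The number with an adjusted p under 0.05 was 11 with DESeq2, 2 with the edgeR exact test and 2 without both set-apart libraries. Over all tested genes, 1065, 1057 and 471 met both DEG criteria in these settings, beside 759 in the main fit.

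Of the other IL-1 family ligands and receptors, 10 of 15 passed the filter and none passed the adjusted test, with 8 positive and 2 negative values and a median log2 fold change of 0.29. At an unadjusted p under 0.05 there were 3 of the 10, beside 31.6% of all tested genes. These were Il1rl1, the co-receptor Il1rap (42.4 ± 5.21 CPM in AVF and 31.1 ± 8.99 in sham, log2 fold change 0.45, adjusted p = 0.103) and the IL-36 receptor Il1rl2 (0.52, adjusted p = 0.137). The ligand Il36g stood at -1.03 (adjusted p = 0.186). Il36a, Il36b, Il1f10 and Il36rn had no counts in any library, and Il1a did not pass the filter.

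Of the 15 genes of IL-1 processing and MyD88 signaling, all passed the filter and none passed the adjusted test (median log2 fold change 0.12). The DNA sensor Aim2 had 5.96 ± 1.66 CPM in AVF and 3.63 ± 1.03 CPM in sham (0.72, SE 0.22, adjusted p = 0.0513). The adaptor Tirap stood at 0.25 (adjusted p = 0.125), the kinase Irak1 -0.14 (adjusted p = 0.186) and the inflammasome adaptor Pycard 0.33 (adjusted p = 0.214). Casp1, which cuts the IL-1β precursor, had 19.3 ± 1.98 CPM in AVF and 21.1 ± 3.67 CPM in sham (adjusted p = 0.479), and Nlrp3 2.05 ± 0.522 and 1.84 ± 0.595 CPM (adjusted p = 0.730).

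Of the other IL-6 family ligands and receptors, 11 of 12 passed the filter (median log2 fold change 0.05). At an adjusted p under 0.05, 1 was higher and 1 lower, beside 8.63% and 5.13% of all tested genes. Cntfr, the receptor that binds ciliary neurotrophic factor and cardiotrophin-like cytokine, was lower in AVF. Its values were 4.51 to 7.60 CPM in AVF and 8.46 to 15.1 CPM in sham, so that the groups did not overlap. This held for 2 of the 76 genes of the 6 lists, beside 6.06% of all tested genes. The means of Cntfr were 6.46 ± 1.15 and 12.03 ± 2.38 CPM (log2 fold change -0.90, SE 0.16, adjusted p = 0.00455), and it passed the threshold in 23 of 23 alternative settings. Clcf1, one of its ligands, was higher with 2.35 to 3.79 CPM in AVF and 1.15 to 1.94 CPM in sham (log2 fold change 0.78, SE 0.20, adjusted p = 0.0231, past the threshold in 17 of 23 settings). The shared chain Il6st had the highest level, 761 ± 82.7 CPM in AVF and 1035 ± 237 CPM in sham (-0.44, SE 0.15, adjusted p = 0.0608). The IL-6 receptor chain Il6ra had 53.8 ± 7.34 and 42.2 ± 5.12 CPM (0.35, SE 0.11, adjusted p = 0.0505). The 2 chains of the IL-6 receptor thus had opposite signs, and neither passed the adjusted test.

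Of the 15 genes of JAK-STAT3 signaling and feedback, none passed the adjusted test (median log2 fold change 0.09). The STAT3 target Socs3, the feedback inhibitor of gp130, had 11.3 ± 4.19 CPM in AVF and 10.6 ± 2.55 CPM in sham (0.09, adjusted p = 0.817). The kinase gene Pim1 had 19.2 ± 7.41 and 36.6 ± 15.5 CPM (-0.93, adjusted p = 0.0737) and the transcription factor Cebpb 13.4 ± 3.73 and 20.3 ± 9.41 CPM (-0.60, adjusted p = 0.194). The kinases Jak1 (0.14, adjusted p = 0.188) and Jak2 (0.17, adjusted p = 0.230) did not pass either.

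Of the TNF ligands, receptors and shedding genes, 10 of 11 passed the filter (median log2 fold change 0.17). At an adjusted p under 0.05, 2 of the 10 were higher, beside 8.63% of all tested genes. Adam17, the protease that sheds TNF and its receptors, had 87.2 ± 7.27 CPM in AVF and 66.9 ± 6.89 CPM in sham (log2 fold change 0.38, SE 0.09, adjusted p = 0.0137, past the threshold in 21 of 23 settings). Tnfrsf1b, the second TNF receptor, had 36.4 ± 3.35 and 27.4 ± 3.44 CPM (0.41, SE 0.10, adjusted p = 0.0184, past the threshold in 20 of 23 settings). For both genes the highest sham library lay above the lowest AVF library. Ripk1 (0.25, adjusted p = 0.0538) and Ltbr (0.23, adjusted p = 0.112) did not pass, and the first TNF receptor Tnfrsf1a was 111 ± 13.8 CPM in AVF and 109 ± 10.1 CPM in sham (adjusted p = 0.870).

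Of the 15 NF-κB subunits and feedback genes, none passed the adjusted test (median log2 fold change 0.03). The lowest adjusted p was that of the subunit Nfkb1 (0.24, adjusted p = 0.0933), followed by the inhibitor of apoptosis Birc3 (0.28, adjusted p = 0.168) and the subunits Rel (0.23, adjusted p = 0.208) and Relb (-0.25, adjusted p = 0.228). The NF-κB targets Nfkbia and Tnfaip3 had 54.2 ± 22.5 and 12.1 ± 3.19 CPM in AVF and 49.6 ± 8.94 and 12.4 ± 1.77 CPM in sham.

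**Figure D5:**
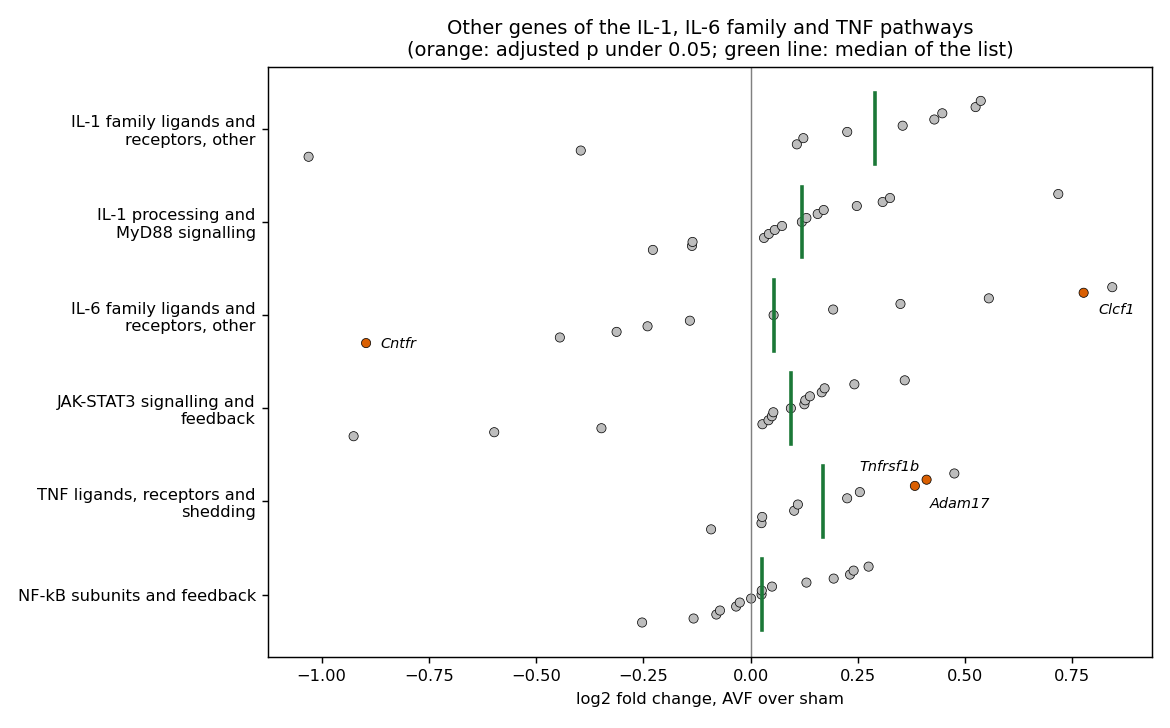
Log2 fold change of AVF over sham for the 76 other pathway genes that passed the expression filter, 1 point per gene by list, with genes at an adjusted p under 0.05 in orange and the median of each list as a green line. Clcf1, Adam17 and Tnfrsf1b lie on the higher side and Cntfr on the lower side, and no list has a median above 0.29.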

How the data were processed

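Poly(A) RNA of 12 IVC libraries was sequenced. Per the study's methods and the labels, the authors trimmed reads with Trimmomatic (0.39), mapped them to GRCm39 with STAR (2.7.7a) and estimated expected counts by strand with RSEM (1.3.3), which they deposited. A gene sharing sequence with another can gain or lose reads in such estimated counts.

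Counts were rounded, and AVF (n = 6) was compared with sham (n = 6) by edgeR's (4.0.16) quasi-likelihood test with TMM normalization, on genes over 1 CPM in at least 2 libraries or, where stated, with more than 12 counts in total. P-values were adjusted by Benjamini-Hochberg over all tested genes. Sex was tested in a model with 4 groups of 3. DESeq2 (1.42.0) and other settings were alternatives. Gene names were taken from GENCODE on GRCm39. Of these steps, the edgeR quasi-likelihood test of AVF against sham was tried on simulated counts with known changes. Relations between libraries used 100000 permutations, or exact permutations within groups. Intervals of fold changes cover counting error and the spread between mice together.

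The members and gene lists were chosen with earlier results of these data known. All 10 genes are named, and in each list the 4 tested genes with the lowest adjusted p (others named beside them were chosen for their role). The 3 most similar genes were ranked by Pearson's r of log2 CPM.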

Additional observations from a re-analysis of the deposited data

Results flagged for a closer look

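Within the groups of 6, 4 values stood apart from the other 5 by Dixon's ratio, among 20 groups searched. Chance alone flags about 1 in 20 groups. Il6 was 0.581 CPM in sham female 3, the highest of the sham group. Il11 was 1.08 CPM in AVF female 1, the highest of the AVF group, in the library with the fewest counts outside ribosomal RNA. Il33 was 78.3 CPM in sham female 2, the lowest of the sham group. Tnf was 1.20 CPM in AVF male 1, the highest of the AVF group. For Il6, Il11 and Tnf these values rest on 12, 10 and 21 counts.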

How the results depend on the processing

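Of the 6 genes that passed the CPM filter, 0 were called between AVF and sham in the main test and 1 without the fold change criterion (Il1r1). Without ribosomal RNA genes Il6 also passed that filter and was the 1 gene called. In the fit on genes with more than 12 counts Il6 was not called, but met both criteria with DESeq2 (2.06), with the edgeR exact test (1.99), without AVF female 1 (2.16) and without sham female 3 (2.74). With the run without ribosomal RNA genes, these were 2 of 12 fits without 1 library and 3 of 9 other alternatives. Of the other pathway genes, 3 higher and 1 lower were called without the fold change criterion, beside 8.63% and 5.13% of all tested genes. With that criterion, leaving out each library in turn gave 0 to 1 called higher (1 without sham male 3) and 0 to 1 called lower (1 without AVF female 2, sham male 2 or sham male 3). Il1r1 stayed under an adjusted p of 0.05 without each library in turn (log2 fold change 0.55 to 0.72) and in 11 of 11 other settings. Differences close to 0 changed sign and passed no threshold. Without both set-apart libraries Il33 was 0.0218 (0.0052 with the filter of more than 12 counts), Lif -0.11 (-0.13 with that filter) and Tnf 0.15 with that filter, and Osmr was -0.0030 with that filter. Leaving out each library in turn gave -0.10 to 0.0276 for Il33, -0.15 to 0.19 for Lif, -0.0939 to 0.0800 for Osmr and -0.68 to 0.0942 for Tnf, and the causes were not tested. In all comparisons of the sexes 0 of the 10 genes were called in every alternative run.

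With sex and replicate number as a replicate block 0 of the 10 genes were called, Il1r1 was 0.62 (adjusted p = 0.0159), Il1b -0.23 (adjusted p = 0.838) and Osmr -0.00028. Whether the numbers pair the samples was not settled, since 6 pairs are too few to decide it. The correlation of deviations was over 0.1 in 3 of 6 pairs (-0.14 to 0.17) and 3 of 6 libraries correlated best with their own number. The further settings for Il6, Il11, Osm and Tnf, which included leaving out each library, were chosen after seeing the data. Osm, Il11, Il6 and Tnf had 85 to 112 counts over the 12 libraries, and counting error and the spread between mice were not separated.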
